A study of Mus musculus with 11 samples.

Results

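T cell receptor signalling kinases and adaptors were described here through 10 genes out of 19938 measured. The genes were Zap70, Lat, Themis, Trat1, Sh2d1a, Txk, Prkcq, Skap1, Ubash3a and Fyn. They were taken by symbol, each through a probe set annotated to that symbol alone. Where a gene had several such probe sets, the probe set with the highest mean would have been used, but each of the 10 had exactly 1. By the array's numbering these are 10345509 for Zap70, 10567825 for Lat, 10362350 for Themis, 10439790 for Trat1, 10599411 for Sh2d1a, 10530516 for Txk, 10469255 for Prkcq, 10380672 for Skap1, 10443749 for Ubash3a and 10362596 for Fyn. Levels are log2 intensities on Affymetrix mouse arrays, so a difference of 1 is a doubling of intensity. Levels of different genes were not set against each other, because each probe set responds in its own way.

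The study profiled 6 sorted populations of early blood and T cell development from C57BL/6J mice on 11 arrays. The marrow populations, each on 2 arrays, are the hematopoietic stem cell (HSC), the lymphoid-primed multipotent progenitor (LMPP) and the common lymphoid progenitor (CLP). The populations with a thymus tissue label are the early thymic precursor (ETP) and double negative 3 (DN3), again on 2 arrays, and double negative 2 (DN2), which has only 1 array. A free-text label of these thymic samples names bone marrow, and the tissue label, which matches the series design, was used. No genotype, transgene or treatment is given for any group, and the sources used here state no age, sorting gate or number of animals. The labels do not say that replicates came from separate animals, so p-values measure the spread between these samples, which may be technical.

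The T cell receptor has no enzyme activity of its own. Src family kinases such as Lck and Fyn phosphorylate the CD3 chains, Zap70 docks there and phosphorylates the scaffold Lat, and Lat gathers the adaptors and enzymes that raise calcium and activate Ras and protein kinase C theta. In the thymus this machinery is first used by the pre-T cell receptor, which a DN3 cell assembles after rearranging its receptor beta gene. Members of the same families serve the B cell receptor and Fc receptors in other blood cells.

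Population markers followed the labels in part. Of 4 measured stem cell markers, Slamf1, Mecom and Hlf were called lower in DN3 than in HSC. Procr was not (-0.93, adjusted p = 0.0511, limma). Mecom and Hlf did not separate HSC (means 7.06 and 8.62) from LMPP (7.02 and 8.95). Slamf1 was called higher in DN3 than in ETP (1.34). The 4 lymphoid-primed markers were called higher in LMPP than in HSC (1.23% of all genes). The 4 CLP markers were called higher in CLP than in LMPP (0.602%). Of 4 measured early thymic markers, Notch1, Hes1 and Gata3 were called higher in ETP than in HSC (2.57%). Kit was not (means 9.37 and 9.47). Il2ra, Ptcra, Bcl11b, Notch3 and Cd3e were called higher in DN3 than in HSC, although Notch3 was not called without DN3 replicate 2 (0.68). Of these 5 genes, Il2ra and Cd3e were called higher in DN2 than in HSC (1.74%). Il2ra was already called higher in ETP (mean 7.32 against 4.40). Of the mature T cell markers, Cd4 ranged from 5.09 to 6.16 and Cd8a from 5.32 to 5.72 over the 11 arrays, and neither passed the limma F test over the populations (adjusted p = 0.103 and 0.923). Of the 8 measured in that list, 2 were called higher in DN3 than in HSC, Cd8b1 by 1.09 (adjusted p = 0.000592, limma) and Il7r by 3.37, and S1pr1 was called lower (-1.63). Of the natural killer markers, Klrb1c ranged from 3.32 to 3.92 and Ncr1 from 3.92 to 4.40 on all 11 arrays, while the mean of that list of 10 genes ran from 5.32 in an LMPP array to 6.00 in an ETP array. Within that list 1 gene, Gzma, was called higher in DN3 than in HSC and 1, Nkg7, lower. Klrd1 ranged from 4.14 to 8.70, and was called higher than in HSC in LMPP, CLP and ETP, with a mean of 7.54 in ETP and 4.34 in HSC. The part of these markers in the results was not tested. Array medians lay between 6.01 and 6.12, and no array stood apart on that measure.

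Promoter windows from RefSeq (GRCm38.p6), the 250 bases before an annotated transcription start, matched 8 of the 10 genes with 12 windows. Sh2d1a and Skap1 had no entry. The 4 windows printed here belong to a gene that rose first (Trat1), a gene that rose steeply in DN2 (Themis), the central scaffold (Lat) and a gene with no called change (Fyn). Each is written 5′ to 3′ on the gene's own strand. Capitals mark exact matches, on either strand, to 5 short motifs of factor families known in early T cells. The letters searched for the ETS family were AGGAAG, those for the RUNX family were TGTGGT, and those for E proteins were CAGGTG. The letters searched for the GATA family were AGATAA, and those for the TCF family were CTTTGA.
Trat1, chr16:48772063-48772312, minus strand: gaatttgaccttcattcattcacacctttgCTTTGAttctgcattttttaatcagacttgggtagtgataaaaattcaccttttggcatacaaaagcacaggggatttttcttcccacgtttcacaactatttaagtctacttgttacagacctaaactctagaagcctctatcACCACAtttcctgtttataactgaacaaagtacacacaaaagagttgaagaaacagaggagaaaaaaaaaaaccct
Themis, chr10:28668110-28668359, plus strand: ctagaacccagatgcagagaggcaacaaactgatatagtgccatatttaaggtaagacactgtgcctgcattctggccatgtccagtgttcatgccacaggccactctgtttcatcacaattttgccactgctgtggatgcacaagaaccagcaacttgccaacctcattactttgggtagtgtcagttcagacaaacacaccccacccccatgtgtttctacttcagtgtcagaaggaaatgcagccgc
Lat, chr7:126369569-126369818, minus strand: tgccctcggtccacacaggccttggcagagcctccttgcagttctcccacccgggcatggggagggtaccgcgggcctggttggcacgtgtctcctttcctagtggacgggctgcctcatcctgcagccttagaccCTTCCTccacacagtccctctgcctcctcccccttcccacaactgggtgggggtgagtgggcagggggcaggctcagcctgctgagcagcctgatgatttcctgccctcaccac
Fyn, chr10:39369549-39369798, plus strand: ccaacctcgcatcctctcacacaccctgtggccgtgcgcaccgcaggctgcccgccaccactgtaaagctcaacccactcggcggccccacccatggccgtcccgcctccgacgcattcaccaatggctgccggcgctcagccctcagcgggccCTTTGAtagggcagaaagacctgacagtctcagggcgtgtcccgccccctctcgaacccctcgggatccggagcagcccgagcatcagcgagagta

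The Trat1 window held a TCF match that begins at position -220 and a RUNX match at -76, counted back from the transcription start, and had 35.2% G and C. The Themis window held none of the 5 motifs. The Lat window held an ETS match at -114 with 65.2% G and C, and the Fyn window held a TCF match at -96 with 67.2% G and C. Over the 12 windows, 5 held ETS, 3 RUNX, 2 E protein, 1 GATA and 4 TCF letters. Among all 32851 windows of this length the shares were 29.5% for ETS, 14% for RUNX, 17.2% for E protein, 9.99% for GATA and 13.8% for TCF. Zap70, Themis and Txk have several of the 12 windows, those of Themis overlap, and a match is a run of letters, not a shown binding site.

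Most of the 10 genes rose along the thymic populations, but at different stages and by very different amounts. A difference was called where limma's two-sided test gave a Benjamini-Hochberg adjusted p under 0.05 over all 19938 genes. In the F test over the 6 populations 9 of the 10 genes were called, against 12.2% of all genes, and Fyn was not (adjusted p = 0.152). The count was 6 without either DN3 replicate and 8 or 9 without any other array. Against HSC, Trat1 was first called higher in ETP, Lat, Themis, Skap1 and Sh2d1a in DN2, and Zap70 and Ubash3a in DN3. Txk, Prkcq and Fyn were in no population called above HSC. The DN2 population is a single array, so its differences borrow the spread of the other 5 populations. In sorted bulk samples, fewer cells with a transcript and less transcript per cell cannot be told apart.

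**Figure D1:**
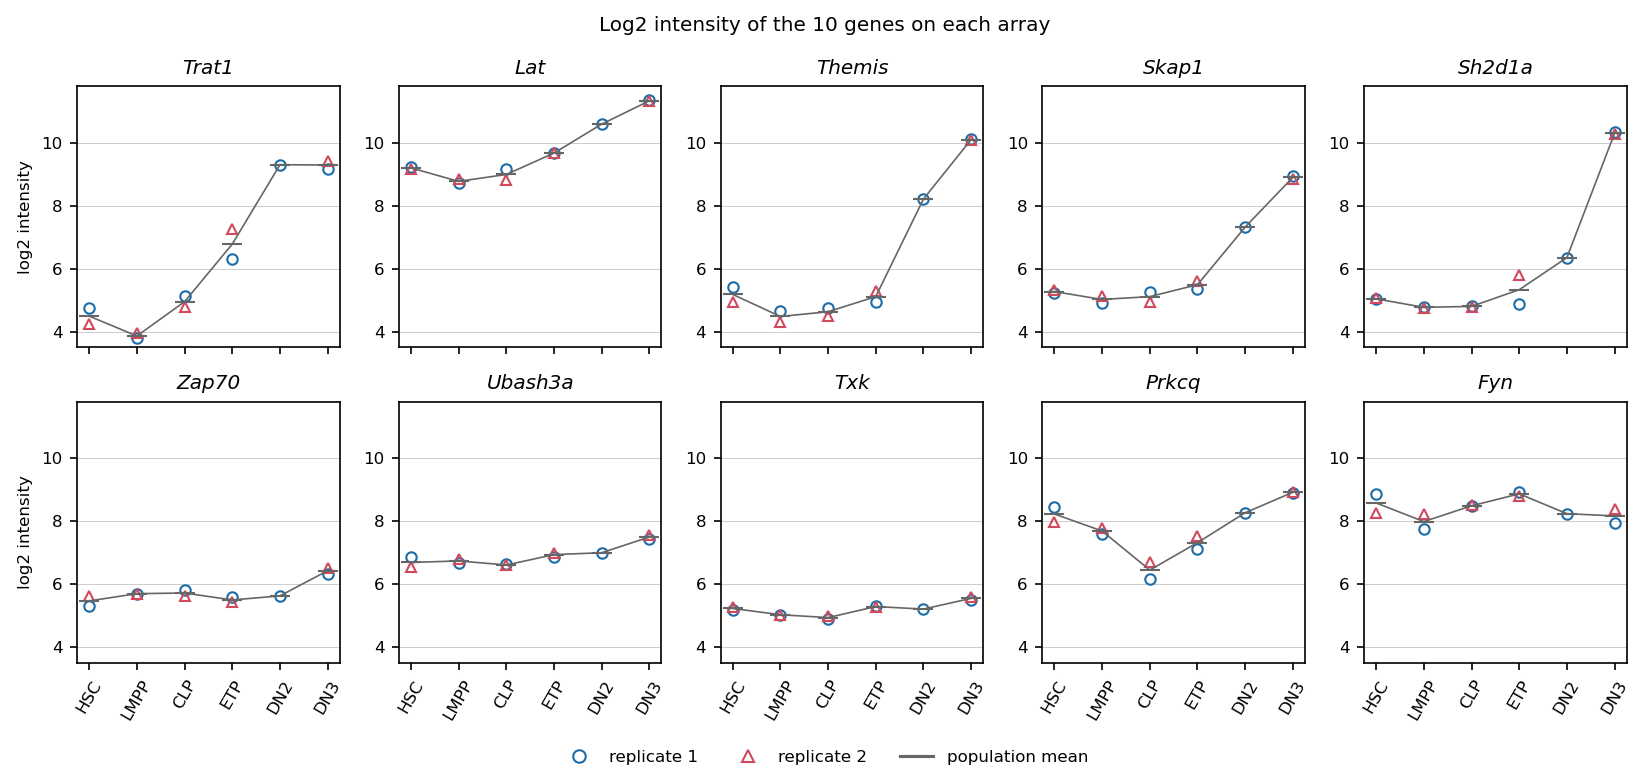
Log2 intensity (vertical axis) of each of the 10 genes on every array, by population (horizontal axis); circles are replicate 1, triangles replicate 2, and dashes joined by a line are population means. Themis, Skap1 and Sh2d1a stay low through ETP and reach 10.10, 8.90 and 10.30 in DN3, Prkcq dips to 6.45 in CLP, and Fyn shows no called change.

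Among the adaptors, Trat1 rose earliest. Trat1 encodes a transmembrane adaptor that associates with the receptor complex. Its log2 intensity was 4.76 and 4.23 in HSC, 3.78 and 3.94 in LMPP, 5.14 and 4.77 in CLP, 6.31 and 7.25 in ETP, 9.30 in DN2, and 9.15 and 9.43 in DN3. Both ETP arrays lay above every marrow array, and the DN2 value fell between the DN3 arrays. Trat1 was 4.87-fold higher in ETP than in HSC (log2 difference 2.28, SE 0.28, adjusted p = 0.000736, limma) and 5.75-fold higher in DN2 than in ETP (2.52, SE 0.34, adjusted p = 0.00567). From DN2 to DN3 the difference was -0.01 (SE 0.34), and 101% of its rise from ETP to DN3 was reached at DN2. The rise from CLP to ETP was 1.82 (adjusted p = 0.00557) and was not called without CLP replicate 2 (1.64, adjusted p = 0.0546).

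The ETP arrays differed from each other in this gene by 0.94, with replicate 2 the higher. Replicate 2 was also the higher for Sh2d1a (5.80 against 4.86), for the receptor chain gene Cd3g (8.45 against 6.68) and for Il2ra (7.68 against 6.96). Cd3e was 6.26 in replicate 1 and 6.24 in replicate 2. The mean of the 8 measured mature T cell markers was 6.36 in replicate 1 and 6.43 in replicate 2, and that of the 10 natural killer markers 5.86 and 6.00. The part of these differences in the results on ETP was not tested.

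Lat encodes the membrane scaffold that Zap70 phosphorylates, and its level climbed over several populations. It read 9.22 and 9.17 in HSC, 8.71 and 8.84 in LMPP, 9.16 and 8.83 in CLP, 9.67 and 9.67 in ETP, 10.59 in DN2, and 11.34 and 11.32 in DN3. No thymic array of Lat fell as low as any marrow array, and the order ETP, DN2, DN3 had no overlap. Its ETP level exceeded that of LMPP 1.86-fold (0.90, SE 0.13, adjusted p = 0.00405, limma) and 2.62-fold higher in DN2 than in HSC (1.39, SE 0.16, adjusted p = 0.000527). In DN3 it was 4.38-fold higher than in HSC (2.13, SE 0.13, adjusted p = 1.43e-06). The single steps were less firm. The step from ETP to DN2 was 0.91 (adjusted p = 0.0219) and was not called without either ETP replicate (adjusted p = 0.101 and 0.106) or either DN3 replicate (0.0537). The step from DN2 to DN3 was 0.74 (adjusted p = 0.0444) and was not called without any 1 of the HSC, LMPP, ETP or DN3 arrays (adjusted p from 0.0549 to 0.213). The step from CLP to ETP was 0.68 (adjusted p = 0.0196) and was not called without CLP replicate 2 (0.115) or either ETP replicate (0.112 and 0.127). Lat in ETP against HSC, 0.48 with an adjusted p of 0.0632, became called without either CLP replicate (0.0383).

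Skap1 encodes an adaptor that links receptor signals to integrin adhesion. It read 5.21 and 5.33 in HSC, 4.92 and 5.12 in LMPP, 5.27 and 4.95 in CLP, 5.36 and 5.61 in ETP, 7.32 in DN2, and 8.95 and 8.84 in DN3. The 8 arrays before DN2 spanned 4.92 to 5.61, and DN2 lay well above them and below both DN3 arrays. Skap1 rose 3.56-fold from ETP to DN2 (1.83, SE 0.18, adjusted p = 0.000801, limma) and 2.99-fold from DN2 to DN3 (1.58, SE 0.18, adjusted p = 0.00101). At DN2 it had covered 53.7% of its log2 rise from ETP to DN3, close to the 55.3% of Lat.

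Sh2d1a encodes SAP, a small SH2 adaptor of SLAM family receptors that recruits Fyn. It read 5.03 and 5.06 in HSC, 4.78 and 4.75 in LMPP, 4.82 and 4.77 in CLP, 4.86 and 5.80 in ETP, 6.35 in DN2, and 10.33 and 10.28 in DN3. Both DN3 arrays stood far above the other 9. The step from DN2 to DN3 was 15.5-fold (3.96, SE 0.28, adjusted p = 3.76e-05, limma), and only 20.5% of the log2 rise from ETP to DN3 had been reached at DN2. DN2 was called above HSC (1.31, SE 0.28, adjusted p = 0.029), but this was lost without HSC replicate 1 (adjusted p = 0.0942), HSC replicate 2 (0.0771) or either DN3 replicate (0.0568). ETP against HSC was 0.29 and not called, yet without ETP replicate 1 it was 0.76 (adjusted p = 0.0162) and without ETP replicate 2 it was -0.19. Without ETP replicate 1, ETP was also called above LMPP (1.04, adjusted p = 0.0055) and CLP (1.01, adjusted p = 0.00596). DN2 against ETP was 1.02 (adjusted p = 0.215) and 1.49 without ETP replicate 2 (0.00321).

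Themis and Ubash3a regulate signal strength. Themis encodes a thymocyte protein that binds Grb2 and the phosphatase Shp1. It read 5.42 and 4.95 in HSC, 4.66 and 4.31 in LMPP, 4.76 and 4.49 in CLP, 4.93 and 5.28 in ETP, 8.21 in DN2, and 10.12 and 10.08 in DN3. It was low on all 8 arrays before DN2. Themis rose 8.59-fold from ETP to DN2 (3.10, SE 0.23, adjusted p = 0.000212, limma) and 3.70-fold from DN2 to DN3 (1.89, SE 0.23, adjusted p = 0.00167). In DN3 it was 30.2-fold above HSC (4.92, SE 0.19, adjusted p = 8.17e-08).

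Ubash3a encodes Sts-2, a member of the family of phosphatase-like proteins that restrain receptor signalling. It read 6.85 and 6.54 in HSC, 6.68 and 6.80 in LMPP, 6.63 and 6.60 in CLP, 6.88 and 6.99 in ETP, 7.0 in DN2, and 7.45 and 7.56 in DN3. Both DN3 arrays were the highest, by a small margin. Ubash3a was 1.75-fold higher in DN3 than in HSC (0.81, SE 0.13, adjusted p = 0.00213, limma). Against ETP the difference was 0.57 (adjusted p = 0.0256) and was not called without either ETP replicate (adjusted p = 0.177 and 0.0809) or either DN3 replicate (0.0981 and 0.211). The step from DN2 to DN3 was 0.50 and not called (adjusted p = 0.244).

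Among the kinases, Zap70 moved late and little. It encodes the kinase that binds phosphorylated CD3 chains. Its log2 intensity was 5.31 and 5.63 in HSC, 5.70 and 5.70 in LMPP, 5.82 and 5.61 in CLP, 5.58 and 5.42 in ETP, 5.63 in DN2, and 6.34 and 6.51 in DN3. The 9 arrays before DN3 spanned 5.31 to 5.82, and both DN3 arrays lay above all of them. Only the DN3 arrays reached a log2 intensity of 6, the limit of the filter on dim genes. Whether a low signal limited the size of this rise was not tested. Zap70 was 1.94-fold higher in DN3 than in HSC (0.95, SE 0.14, adjusted p = 0.00127, limma) and 1.90-fold higher than in ETP (0.93, SE 0.14, adjusted p = 0.00211). Only 13.9% of its log2 rise from ETP to DN3 was reached at DN2. The step from DN2 to DN3, 0.80 with an adjusted p of 0.0485, was not called without any 1 of the LMPP, CLP, ETP or DN3 arrays (adjusted p from 0.0576 to 0.308). DN3 against CLP was 0.71 (adjusted p = 0.0102) and was lost without CLP replicate 2 (0.0657) or DN3 replicate 2 (0.116). DN3 against LMPP was 0.73 (adjusted p = 0.00776) and was lost without DN3 replicate 2 (0.0938).

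Prkcq followed another course, falling before it rose. It encodes protein kinase C theta, which acts below Lat on NF-kappaB. It read 8.46 and 7.99 in HSC, 7.60 and 7.77 in LMPP, 6.18 and 6.72 in CLP, 7.11 and 7.54 in ETP, 8.27 in DN2, and 8.91 and 8.92 in DN3. The CLP arrays were the lowest and the DN3 arrays the highest, with no overlap with any other population. Prkcq was 3.42-fold lower in CLP than in HSC (-1.78, SE 0.21, adjusted p = 0.000538, limma) and 5.52-fold higher in DN3 than in CLP (2.46, SE 0.21, adjusted p = 3.16e-05). DN3 was also above ETP, by 1.59 (SE 0.21, adjusted p = 0.000878). DN3 against HSC was 0.69 and not called (adjusted p = 0.0752), though it was called without HSC replicate 1 (0.92, adjusted p = 0.0464) or without either CLP replicate (0.0476). CLP against LMPP was -1.23 (adjusted p = 0.021) and was lost without CLP replicate 1 (0.154), an LMPP replicate (0.0844 and 0.167) or a DN3 replicate (0.0501). ETP against HSC was -0.90 (adjusted p = 0.0351) and was lost without HSC replicate 1 (0.198), ETP replicate 1 (0.254), an LMPP replicate (0.0517) or a DN3 replicate (0.0657). ETP against CLP was 0.87 and not called (adjusted p = 0.0682), and was called without CLP replicate 2 (1.14, adjusted p = 0.0432).

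Txk, a Tec family kinase, and Fyn, a Src family kinase, had the smallest ranges of population means, 0.60 and 0.88. The range of Ubash3a was close (0.89), and over single arrays Fyn ranged more widely (1.19) than Ubash3a (1.02). Txk read 5.18 and 5.28 in HSC, 5.02 and 5.03 in LMPP, 4.91 and 4.98 in CLP, 5.30 and 5.27 in ETP, 5.21 in DN2, and 5.49 and 5.60 in DN3. The DN3 arrays were the highest, and all 11 arrays lay between 4.91 and 5.60. The filter on dim genes, at a log2 intensity of 6, therefore left Txk out. DN3 was called above CLP (0.60, SE 0.11, adjusted p = 0.00528, limma) and LMPP (0.52, SE 0.11, adjusted p = 0.0112), and not above HSC (0.32, SE 0.11, adjusted p = 0.108). The first of these was lost without DN3 replicate 2 (0.0717), and the second without either DN3 replicate (0.0501 and 0.123) or either LMPP replicate (0.063 and 0.0515).

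Fyn read 8.88 and 8.27 in HSC, 7.74 and 8.24 in LMPP, 8.47 and 8.51 in CLP, 8.93 and 8.80 in ETP, 8.24 in DN2, and 7.95 and 8.38 in DN3. Its DN3 arrays overlapped those of HSC, and its ETP mean was the highest of the 6. No comparison of Fyn was called in the fit of all 11 arrays. Its largest differences were ETP minus LMPP at 0.88 (SE 0.22, adjusted p = 0.0802, limma) and DN3 minus ETP at -0.70 (SE 0.22, adjusted p = 0.111). The first was called without either HSC replicate (adjusted p = 0.0441).

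Counted by comparison, 47 of the 66 called differences set a thymic against a marrow population, 17 lay among thymic populations and 2 among marrow populations. Most of the 15 comparisons are of the first kind, so these counts cannot be read as rates. Shares of all genes are given for each comparison below. In limma's fit LMPP against HSC called 0 of the 10 genes higher (1.23% of all genes) and 0 lower (1.71%), and at an unadjusted p under 0.05 the counts were 0 and 5. CLP against HSC called 0 higher (2.68% of all genes) and 1 lower, Prkcq (3.6%), with 0 higher and 3 lower at an unadjusted p under 0.05. CLP against LMPP called 0 higher (0.602%) and Prkcq lower (0.542%), with 2 higher and 1 lower unadjusted. Of the 10 genes, Prkcq alone was called among the marrow populations with all arrays in the fit. Themis was called lower in LMPP than in HSC without HSC replicate 2 (-0.93, adjusted p = 0.0446), and Trat1 higher in CLP than in LMPP without either ETP replicate (1.09, adjusted p = 0.0416).

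ETP against HSC called Trat1 higher (2.57% of all genes) and Prkcq lower (2.56%). ETP against LMPP called 2 higher, Trat1 and Lat (1.44%), and 0 lower (0.868%), and ETP against CLP called the same 2 genes higher (1.41%) and 0 lower (1.1%). At an unadjusted p under 0.05 the lower counts of both were again 0, and the higher counts were 7 and 8. Trat1 and Lat, both adaptors, were thus the called rises from a progenitor of the marrow to ETP, and leaving out single arrays changed these calls as given for each gene.

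DN2 against ETP called 4 higher, Lat, Themis, Trat1 and Skap1 (0.321% of all genes), and 0 lower (0.677%), with 6 higher and 1 lower unadjusted. DN2 against HSC called 5 higher (1.74%) and 0 lower (2.25%). The same 5 genes, Lat, Themis, Trat1, Sh2d1a and Skap1, were called higher in DN2 against LMPP (1.69% of all genes, 0 lower against 1.38%), and Prkcq joined them against CLP (1.32%, 0 lower against 1.44%). Sh2d1a was lost against LMPP without either LMPP replicate (adjusted p = 0.0546 and 0.0575, limma) and against CLP without either CLP replicate (0.0617 and 0.0596), and against HSC as given above. DN3 against DN2 called 5 higher, Zap70, Lat, Themis, Sh2d1a and Skap1 (0.702%), and 0 lower (1.09%). This last count was 3 when any 1 of the LMPP, ETP or DN3 arrays was left out.

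Over the longer intervals the counts were larger. DN3 against ETP called 8 of 10 higher (2.68% of all genes), with a median log2 difference of 1.62 where the median of all genes was 0.00. DN3 against HSC called 7 higher (4.17%), with a median of 1.54, and DN3 against CLP called 9 higher (4.51%), as did DN3 against LMPP (5.46%). Called lower were 0 in DN3 against ETP (3.89% of all genes), HSC (5.43%), CLP (4.18%) or LMPP (4.55%). At an unadjusted p under 0.05, 1 gene, Fyn, was lower in DN3 against ETP and 0 in the other 3 comparisons. These comparisons share the DN3 arrays and are not independent of each other. Both DN3 arrays lay above all 9 other arrays for 8 of the 10 genes, against 6.8% of all genes, a description with no test. The exceptions were Trat1, already at its DN3 level in DN2, and Fyn.

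**Figure D2:**
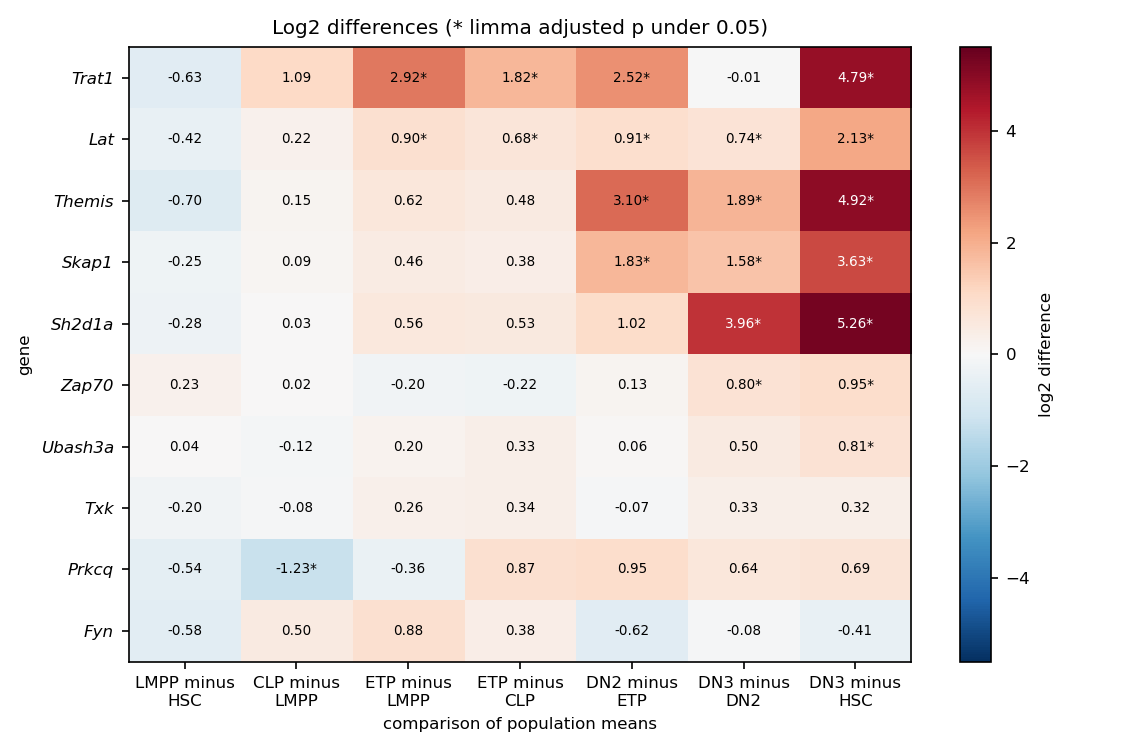
Log2 differences between population means (colour and printed value) for the 10 genes (rows) in 7 comparisons (columns); an asterisk marks a limma adjusted p under 0.05. Trat1 is called in ETP, Themis and Skap1 rise by 3.10 and 1.83 from ETP to DN2, and Sh2d1a by 3.96 from DN2 to DN3.

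Closely related genes of the same families were often lower in DN3 than in ETP. For 6 of the 10 genes a single close relative was listed: Syk for Zap70, Lat2 for Lat, Themis2 for Themis, Sh2d1b1 for Sh2d1a, Skap2 for Skap1 and Ubash3b for Ubash3a. In DN3 against ETP, 6 of these 6 relatives were called lower, and 6 of 6 partners were called higher. Against HSC 3 of the 6 relatives were called lower (5.43% of all genes), while Lat2 (-0.43, adjusted p = 0.0833, limma), Sh2d1b1 (-0.67, 0.187) and Themis2 (-0.25, 0.617) were not. Syk was lost there too without DN3 replicate 1 (0.0646). Against DN2 4 were called lower (1.09% of all genes), and Syk (-0.44, adjusted p = 0.324, limma) and Themis2 (-0.79, 0.214) were not. Of those 4, Sh2d1b1 (0.141 and 0.0716) and Ubash3b (0.0723 and 0.216) were lost without either DN3 replicate, and Skap2 without DN3 replicate 1 (0.0697). Over the whole list of related genes, 8 of 20 measured were called lower against 3.89% of all genes, and 2 were called higher against 2.68%. The median log2 difference of the list was -0.37, where that of all genes was 0.00. No test was made between a gene and its relative. In DN3 against ETP, 0 of 5 B cell markers and 1 of 5 macrophage markers, Csf1r, were called lower (3.89% of all genes). Of 10 natural killer markers, 2 were called lower there, Klrd1 (-3.22) and Nkg7 (-1.53), and 1, Gzma, higher. The part of these marker lists in the falls of the related genes was not tested.

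Syk, the kinase of the B cell receptor and Fc receptors, read 7.81 and 7.75 in ETP, 7.49 in DN2, and 6.97 and 7.14 in DN3, and fell by 0.73 from ETP to DN3 (SE 0.12, adjusted p = 0.00392, limma). This was not called without DN3 replicate 1 (-0.64, adjusted p = 0.0587). Lat2, a scaffold of B cells and mast cells, read 8.28 and 8.31 in ETP, 8.11 in DN2, and 6.46 and 6.63 in DN3, a fall of 3.36-fold (-1.75, SE 0.14, adjusted p = 1.75e-05). Lat2 was still near its ETP level in DN2, whereas Lat had already risen there.

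Skap2, the widely expressed relative of Skap1, read 8.99 and 9.20 in ETP, 8.68 in DN2, and 7.33 and 7.63 in DN3, a fall of 3.07-fold (-1.62, SE 0.16, adjusted p = 8.38e-05, limma). Ubash3b, which encodes Sts-1, read 6.92 and 7.39 in ETP, 6.61 in DN2, and 5.67 and 5.42 in DN3, a fall of 3.05-fold (-1.61, SE 0.17, adjusted p = 0.000164). Sh2d1b1, which encodes the SAP-like adaptor EAT-2, read 5.74 and 6.02 in ETP, 5.70 in DN2, and 3.77 and 4.09 in DN3 (-1.95, SE 0.27, adjusted p = 0.00107). For these 3 genes, as for Lat2, the DN3 arrays lay below every ETP and DN2 array. Themis2, known from B cells and macrophages, fell by 1.02 (SE 0.19, adjusted p = 0.00901), and was not called without ETP replicate 1 (-0.86, adjusted p = 0.101) or DN3 replicate 1 (-0.91, adjusted p = 0.0964).

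Among relatives of the kinases with several family members, Btk showed the largest fall. Btk, the Tec family kinase of B cells and a relative of Txk, read 8.60 and 8.89 in ETP, 8.52 in DN2, and 5.74 and 5.54 in DN3, a fall of 8.58-fold from ETP (-3.10, SE 0.14, adjusted p = 3.55e-07, limma). The protein kinase C genes split. Prkca rose 6.81-fold from ETP to DN3 (2.77, SE 0.15, adjusted p = 1.16e-06) and Prkcb 5.01-fold (2.33, SE 0.13, adjusted p = 1.6e-06), while Prkce fell by 0.90 (SE 0.14, adjusted p = 0.00274). Prkca already stood at 8.14 in DN2 against 5.91 and 5.86 in ETP, whereas Prkcb was 7.30 in DN2 and 9.46 and 9.49 in DN3.

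**Figure D3:**
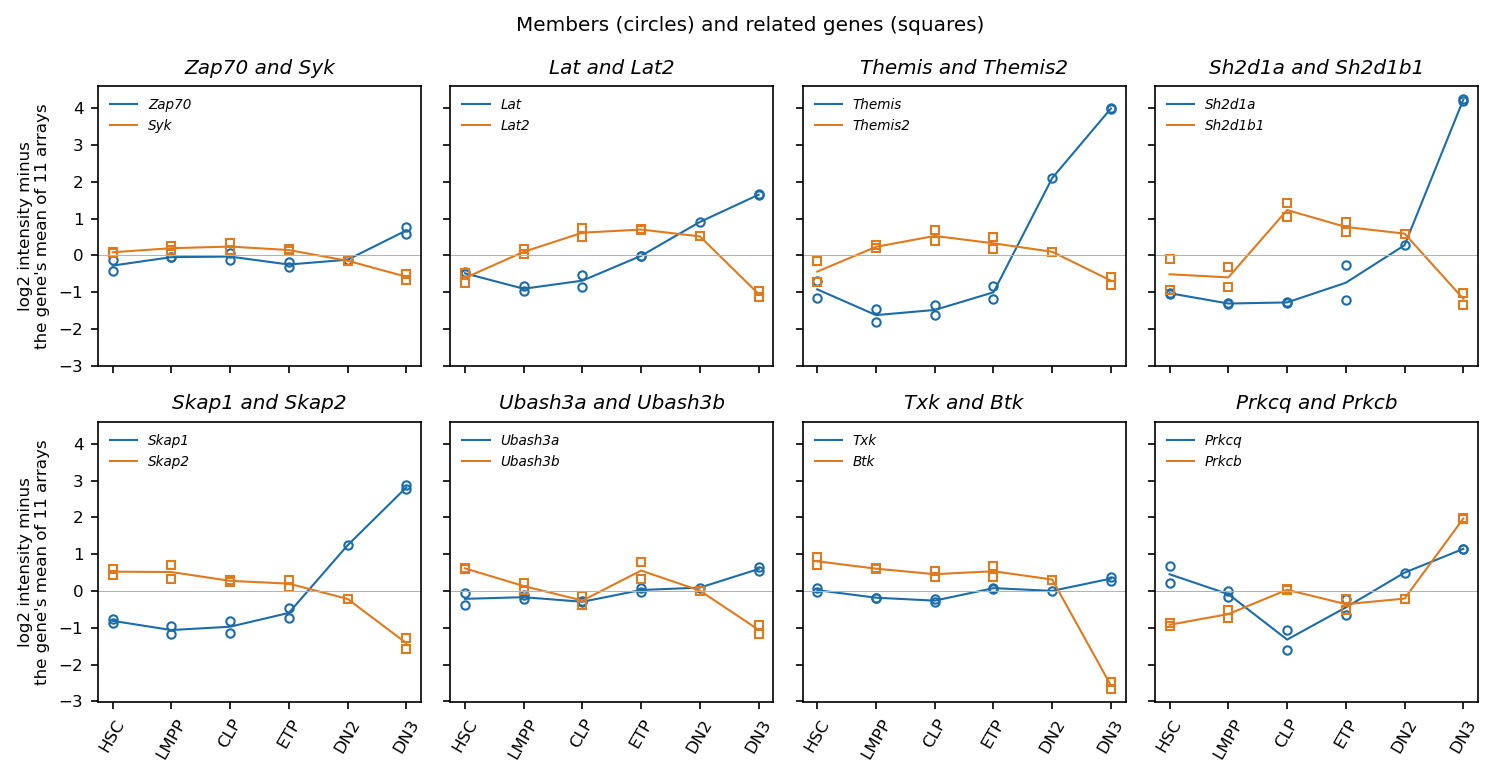
Log2 intensity minus the gene's mean over the 11 arrays (vertical axis) for 8 of the genes (circles) and a related gene (squares) on every array, by population (horizontal axis); lines join population means. In the first 6 panels the related gene falls from ETP to DN3 (Lat2 by 1.75) while its partner rises; where 2 lines cross depends on the centring and carries no meaning.

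The rest of the pathway was read from lists of other genes. Of 12 genes of the receptor complex and coreceptors, 8 were called higher in DN3 than in HSC (4.17% of all genes) and 0 lower (5.43%), with a median of 1.36. Cd3d (7.59), Cd3g (7.52), Cd3e (3.56) and Cd28 (3.56) led by log2 difference, followed by Ptcra (1.72), the pre-receptor alpha chain. Cd28 was also called above HSC in CLP (mean 7.54), and its means were 5.76 in ETP and 5.78 in DN2. From ETP to DN2, Cd3g (3.65, adjusted p = 0.00569, limma) and Cd3d (1.95, adjusted p = 0.0398) were called in this list. The Cd3d call was lost without any 1 of the HSC, LMPP, CLP or DN3 arrays (adjusted p from 0.0636 to 0.0832).

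Of 16 other adaptors, 8 were called higher in DN3 than in HSC and 1 lower, with a median of 0.58. The higher count was 5 without HSC replicate 2 or either DN3 replicate. Grap2, which encodes the Lat-binding adaptor Gads, rose by 2.99 and Fyb, an adaptor that binds Skap1, by 1.21. Gab2, an adaptor of cytokine and Fc receptors, fell by 1.44. In DN3 against ETP the same list split, with 5 called higher (2.68% of all genes), 4 lower (3.89%) and a median of 0.14. Lax1 (-1.38) and Tespa1 (-0.96), called higher in DN3 than in HSC, were among those 4. Fewer were called in either direction without ETP replicate 2 or DN3 replicate 2. Lcp2, which encodes SLP-76, was higher in DN3 than in HSC by 0.67 (SE 0.16, adjusted p = 0.0253, limma). That call was lost without HSC replicate 2 or a DN3 replicate. Its mean was lowest in CLP (7.28), and the difference from CLP to ETP was larger (2.28, adjusted p = 3.33e-05, limma). From ETP to DN3 it was 0.17 and not called. Of 7 measured proximal kinases and phosphatases, 3 were called higher in DN3 than in HSC (Ptprc, Ptpn22 and Pag1) and 1 lower (Tec), with a median of 0.14. The Tec call was lost without HSC replicate 2 (adjusted p = 0.0554), DN3 replicate 1 (0.0763) or DN3 replicate 2 (0.0847). Of 19 measured downstream enzymes and exchange factors, 5 were called higher (Plcg1, Rasgrp1, Dgka, Cbl and Cblb) and 0 lower, with a median of 0.25. The higher count was 3 without HSC replicate 2 or DN3 replicate 2, as Plcg1 and Cbl were lost, and 1 gene was called lower without HSC replicate 1. Rasgrp1, the Ras exchange factor of lymphocytes, rose by 2.93, and Cblb, a ubiquitin ligase that restrains signalling, by 1.88.

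**Figure D4:**
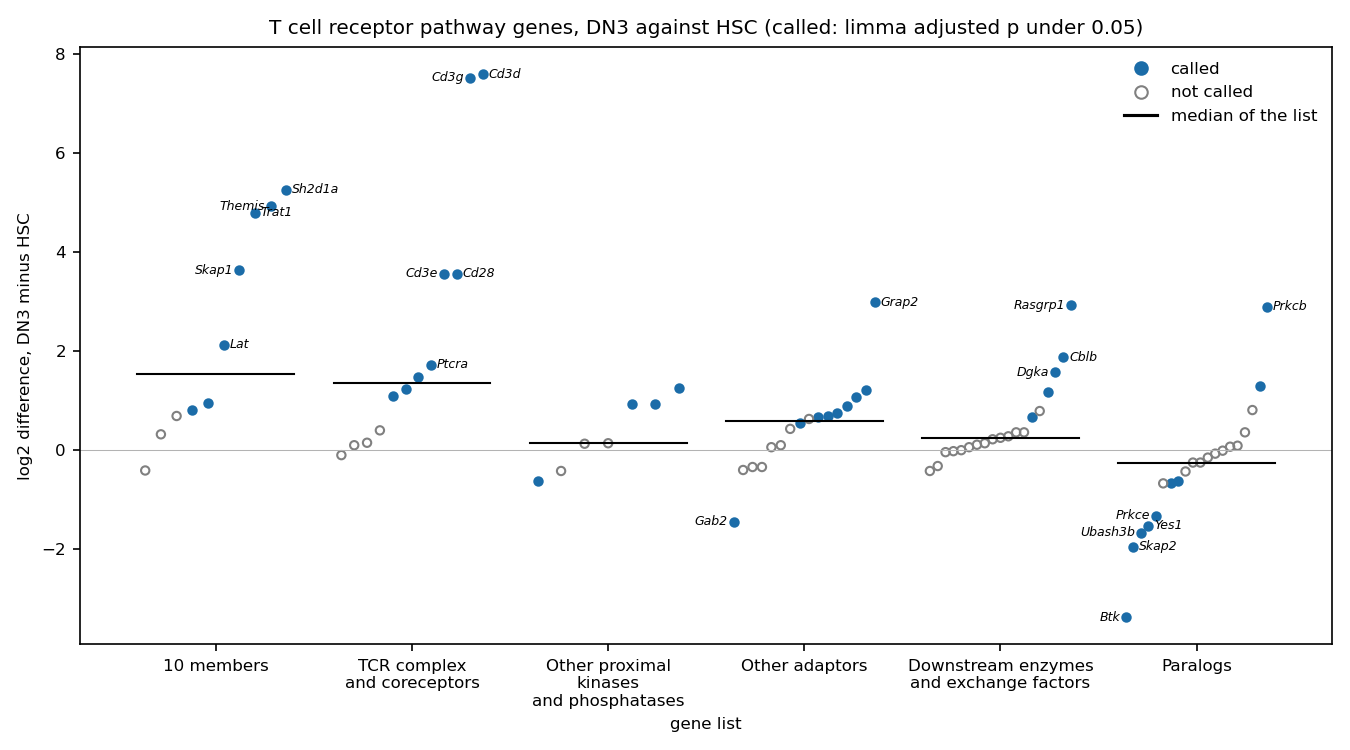
Log2 difference, DN3 minus HSC (vertical axis), for the 10 genes and 5 lists of pathway or related genes (horizontal axis); filled points have a limma adjusted p under 0.05, and black lines are list medians. The medians are 1.54 for the 10 genes, 1.36 for the receptor complex and -0.25 for the related genes.

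Over the 11 arrays, some of the 10 genes had nearly the same profile. Themis and Skap1 correlated most closely (Pearson r = 0.993, Spearman rank correlation 0.864). Lat correlated with Skap1 at 0.975 (Spearman 0.964) and with Trat1 at 0.955 (Spearman 0.864). Zap70 correlated with Sh2d1a at 0.868 by Pearson but only at 0.209 by rank, so their profiles were not alike outside DN3. Fyn correlated with Zap70 at -0.479. These values describe 11 arrays that fall into 6 populations, with DN3 apart from the rest for most genes, and carry no p-value.

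The genes with the profiles most like each of the 10 were sought among 1570 genes whose population means span at least 1 log2 unit. Closest to Trat1 were Il2ra (r = 0.984), Sytl3 (0.982) and Cd3g (0.977), which also rise in ETP and DN2. Closest to Lat were Gzma (0.99), Sytl3 (0.983) and Thy1 (0.978). Closest to Sh2d1a was Cd3e (0.989), a receptor chain gene with population means of 6.25 (ETP), 7.07 (DN2) and 9.62 (DN3). Closest to Skap1 was Cd3d (0.983) and closest to Themis was Tubb3 (0.988). Closest to Zap70 was Tshz2 (0.959), to Prkcq Atxn7l1 (0.961), to Ubash3a Actn1 (0.964) and to Txk Maoa (0.933). Fyn had no close match, since the highest value was 0.807, for Sele.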

How the data were processed

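RNA from 11 sorted samples was hybridised to Affymetrix mouse arrays. Log2 intensities, normalized by RMA, were deposited by the authors, per the submitters' processing notes; the genome build is not given in the sources used here. Of 35556 probe sets, 21789 carried 1 gene symbol, 1621 several and 12146 none. Probe sets with 1 symbol were reduced to the highest mean per gene, giving 19938 genes. No gene was filtered out.

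The 6 population means were fitted with limma 3.58.1 in R 4.3.3 (lmFit and eBayes, two-sided, 5 residual degrees of freedom), with Benjamini-Hochberg adjustment over all genes in each comparison. Data were simulated for DN3 minus HSC over 19938 genes, with independent normal noise of each gene's fitted spread and 200 genes raised in DN3 alone. Recovered were 75 of 100 genes changed by 1 log2 unit and 99 of 100 changed by 2, with 7 false calls. In the real data this comparison called 832 genes higher and 1082 lower, so the setting differs. Recovery in comparisons with the single DN2 array was not assessed. The number of arrays, 2 per group and 1 for DN2, limits the precision.

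Named genes were the 10 genes, called genes of the lists and all related genes, and the 3 most correlated genes of each. The genes, lists and tests were chosen with earlier results of these data known. Same-numbered replicates were not treated as pairs in the main fit. Of 10 correlations of replicate differences between populations, 4 exceeded 0.1 (range -0.258 to 0.283). Those among LMPP, CLP, ETP and DN3 were all positive (0.0703 to 0.283), and those with HSC were all negative (-0.258 to -0.0876). A batch shared by same-numbered replicates was not tested. Alternatives tried were quantile normalization, median centring, array weights, a filter on dim genes, the 2 groups alone, stricter thresholds, a replicate block and leaving out each array.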

Additional observations from a re-analysis of the deposited data

How the results depend on the processing

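Of 150 differences of the 10 genes in the 15 comparisons, 66 were called. Of these, 51 were called under each alternative that kept the threshold and 15 were lost under at least 1, all 15 when an array was left out. A threshold of 0.01 lost 12 of the 66, and 16 were under 2-fold. Of the 84 not called, 11 became called under at least 1. No called difference changed sign. Sh2d1a in ETP against HSC, not called, ranged from -0.19 without ETP replicate 2 to 0.76 without ETP replicate 1. Genes called higher in DN3 against DN2 numbered 3 with an adjusted p under 0.01 or at least 2-fold change, against 5, and genes called higher in ETP against CLP 1 under quantile normalization, p under 0.01 or 2-fold, and 0 with the 2 groups alone, against 2. Prkcq was no longer called lower (0 against 1) in ETP against HSC or CLP against LMPP with arrays centred on their medians, with p under 0.01 or with the 2 groups alone, nor in ETP against HSC at 2-fold. ETP against LMPP called 1 at 2-fold, and array weights called 1 lower in DN3 against ETP, Fyn (-0.70, adjusted p = 0.0375). With populations numbered 1 (HSC) to 6 (DN3) and 0 for none, the first called above HSC became 0 for Zap70 and Ubash3a at 2-fold, and 6 for Sh2d1a with array weights or p under 0.01. The causes were not tested.

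Leaving out each array, the counts ran from 0 to 1 lower in LMPP against HSC, 1 to 2 higher and 0 to 1 lower in ETP against HSC, 0 to 1 higher and 0 to 1 lower in CLP against LMPP, 1 to 2 higher in ETP against CLP, and 3 to 4 higher in DN3 against DN2. On the same numbering, the first population above HSC ran from 4 to 6 for Lat and Sh2d1a, from 5 to 6 for Themis and Skap1 (6 without the DN2 array), and from 0 to 6 for Prkcq. A filter on dim genes left 9 of the 10, without Txk. With the replicate number as a block, DN3 against DN2 called 3 genes higher. The block lost 3 calls, Lat in DN2 against ETP (adjusted p = 0.0523, limma), Lat in DN3 against DN2 (0.0723) and Zap70 in DN3 against DN2 (0.102). It gained 0. Whether same-numbered replicates share a batch was not tested. The array number limits all of these, DN2 most.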
